A study of Mus musculus with 2 samples.

Results

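C1qa, C1qb, C1qc, Apoe, Pf4, Mrc1, Cd163, Cx3cr1 and Adgre1 are 9 genes by which resident tissue macrophages are commonly recognised. They were taken by symbol, and each matched 1 of the 54838 genes counted. Their transcripts were counted as UMIs (unique molecular identifiers, 1 for each captured RNA molecule) in 2 single-cell libraries of intestinal immune cells, 1 from Dpf2 knockout mice (KO) and 1 from wild-type mice (WT). Both genotypes had been given 10 Gy of X-rays, so the comparison is between irradiated animals and holds no unirradiated sample. The tissue was digested, stained for viability and sorted by whether cells carried GFP or tdTomato, and the labels do not say which of these gates were loaded. The labels also leave out the time after irradiation, the number of mice, what part of Dpf2 was removed and in which cells. The question put to the data was whether the KO intestine held more macrophages or whether macrophages carried more of these transcripts, and how much of the signal lay in other cells. With 1 library per genotype no difference has a replicate check and no test was run. Brackets hold 95% intervals (exact Poisson for levels, Clopper-Pearson for shares, conditional binomial for ratios of levels, and opposite ends of 2 share intervals for ratios of shares). All of them cover counting error only.

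C1qa, C1qb and C1qc encode the chains of C1q, the recognition protein of the classical complement pathway, which binds antibody complexes and dying cells and is made mainly by macrophages. Apoe carries lipids out of cells, and Pf4 is a chemokine best known from platelets that macrophages in several tissues also make. Mrc1 (the mannose receptor, CD206) and Cd163 (the receptor for haptoglobin-bound haemoglobin) are scavenger receptors. Cx3cr1 is the receptor for the chemokine Cx3cl1, and Adgre1 is the adhesion receptor known as F4/80. In the gut, most macrophages are replaced by blood monocytes, which enter with high Ly6c2 and gain C1q, Cx3cr1, Mrc1 and Adgre1 as they mature.

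On GRCm38 the C1q genes lie side by side within 18675 bases of chromosome 4, all on the minus strand: C1qb at 136880129 to 136886187, C1qc at 136889804 to 136893065 and C1qa at 136895917 to 136898803. Apoe lies on chromosome 7 (19696109 to 19699188, minus), Pf4 on chromosome 5 (90772435 to 90773383, plus) and Mrc1 on chromosome 2 (14229392 to 14332057, plus). Cd163 lies on chromosome 6 (124304656 to 124330527, plus), Cx3cr1 on chromosome 9 (119901616 to 120069879, minus) and Adgre1 on chromosome 17 (57358691 to 57483527, plus). Positions are whole gene spans in GENCODE.

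Promoters are shown for 2 neighbouring C1q genes, and for Pf4 and Mrc1, whose levels over clusters were most like those of C1q. The ratio of KO to WT differed from that of C1q over all monocytes or macrophages for Pf4, and only within single clusters for Mrc1. Each promoter is 300 bases of RefSeq sequence on GRCm38.p6, with 250 bases before the gene's start and 50 after it, printed 5′ to 3′ on the gene's own strand. GAGGAAG is a string of the kind bound by PU.1, a main transcription factor of macrophages. Capitals mark it on either strand (it reads CTTCCTC where it lies on the opposite strand), and in C1qc and Pf4 they cover the longer GAGGAAGTG, read as CACTTCCTC. The windows are chr4:136886151-136886450 (minus) for C1qb, chr4:136892865-136893164 (minus) for C1qc, chr5:90772185-90772484 (plus) for Pf4 and chr2:14229164-14229463 (plus) for Mrc1.
C1qb: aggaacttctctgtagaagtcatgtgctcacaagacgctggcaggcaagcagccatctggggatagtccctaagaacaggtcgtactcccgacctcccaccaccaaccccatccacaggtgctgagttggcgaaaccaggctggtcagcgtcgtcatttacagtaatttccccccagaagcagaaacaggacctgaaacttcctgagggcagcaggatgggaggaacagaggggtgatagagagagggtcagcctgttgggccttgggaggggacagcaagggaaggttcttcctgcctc
C1qc: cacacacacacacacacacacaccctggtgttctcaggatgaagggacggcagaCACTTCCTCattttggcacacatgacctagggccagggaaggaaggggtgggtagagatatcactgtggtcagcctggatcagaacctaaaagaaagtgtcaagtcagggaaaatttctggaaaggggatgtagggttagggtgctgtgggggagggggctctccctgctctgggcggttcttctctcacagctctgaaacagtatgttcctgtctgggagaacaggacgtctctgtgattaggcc
Pf4: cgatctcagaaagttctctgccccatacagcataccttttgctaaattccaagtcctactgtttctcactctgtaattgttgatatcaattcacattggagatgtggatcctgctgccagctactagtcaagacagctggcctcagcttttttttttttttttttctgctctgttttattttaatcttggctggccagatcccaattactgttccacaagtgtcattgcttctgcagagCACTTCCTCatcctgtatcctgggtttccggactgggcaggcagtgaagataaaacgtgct
Mrc1: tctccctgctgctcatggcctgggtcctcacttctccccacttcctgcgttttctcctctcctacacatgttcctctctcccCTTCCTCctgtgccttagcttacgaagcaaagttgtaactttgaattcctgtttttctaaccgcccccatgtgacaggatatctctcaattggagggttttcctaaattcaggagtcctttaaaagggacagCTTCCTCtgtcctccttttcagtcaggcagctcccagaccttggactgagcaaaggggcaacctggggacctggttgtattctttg
Searched on both strands, GAGGAAG was found in 4477 of 32851 mouse promoters of this length (13.6%). Of the 7 members with a promoter in the table, C1qc, Pf4 and Mrc1 hold it. It starts 194 bases before the gene's start in C1qc, 9 bases before it in Pf4, and 168 and 36 bases before it in Mrc1. The longer GAGGAAGTG, which contains the first string, was in 1.57% of promoters and among the members in C1qc and Pf4. TGCTGAC, part of the site of MAF factors, was in 4.67% of promoters and in 0 of the 7. A match describes these letters and is not evidence of binding.

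The KO library held 8265 kept cells with a median of 4112 UMIs and the WT library 10259 with a median of 4543, and 24 cell barcodes occurred in both. Dpf2 itself (chromosome 19, 5896516 to 5913010, minus) had a level of 19.6 in KO cells and 33.3 in WT cells, so the transcript was lower but still counted in the library labelled KO. A level is UMIs per 1000000 UMIs of the cells named, and levels are compared between cells and libraries, not between genes. The cells were clustered without the 9 members, and 3 clusters were like monocytes or macrophages by other markers (1123 KO and 1541 WT cells). Cluster 16 was led by Mmp13, Ms4a7, Ptgs1 and Ccl7 (237 KO and 98 WT cells), cluster 2 by Inhba, Mmp12, Spp1 and Aoah (642 and 946), and cluster 8 by the monocyte genes Chil3, F13a1 and Vcan with Lyz2 (244 and 497). Cells of this class had a median of 6701 UMIs in KO and 5374 in WT, and more RNA per cell and deeper sequencing cannot be told apart. Their total share of kept cells was 13.6% in KO (12.9 to 14.3) and 15% in WT (14.3 to 15.7).

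The C1q, Pf4 and Mrc1 transcripts were macrophage transcripts in both libraries, while Cx3cr1 was not. The monocyte or macrophage class held 90.5% of all C1qa UMIs in the KO library and 87.0% in the WT library, and for Pf4 90.2% in KO and 90.5% in WT. For Mrc1 it held 92.0% in KO and 81.5% in WT, for Apoe 79.1% and 69.0%, and for Adgre1 71.0% and 77.0%. Of Cx3cr1 only 27.2% in KO and 25.9% in WT lay in the class. Cd163 had 8 UMIs in all kept KO cells and 7 in all kept WT cells, so 1 of the 9 genes was hardly counted and its level could not be compared at this depth.

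**Figure D1:**
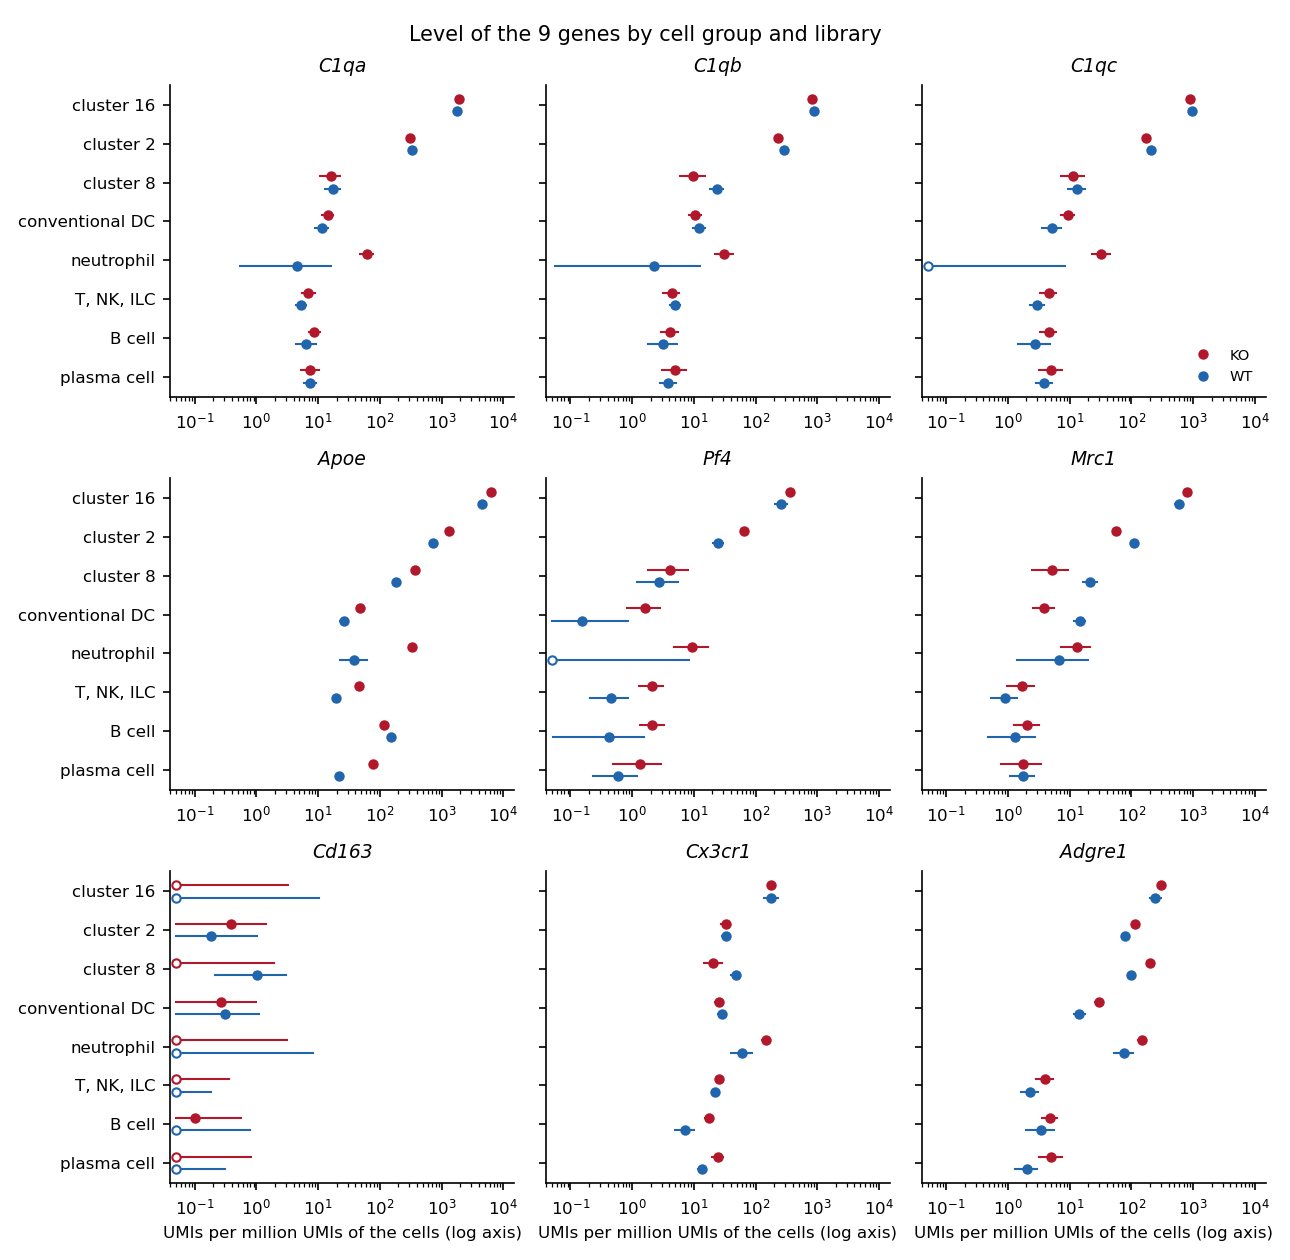
Level of each of the 9 genes (UMIs per 1000000 UMIs, log axis) in the macrophage-like clusters and the other cell classes, KO and WT side by side with 95% Poisson intervals; open circles at the left edge stand for a level of 0. Cluster 16 has the highest C1qa level in both libraries (1944 in KO and 1791 in WT), and Cd163 is at or close to 0 throughout.

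Within the class the C1q level followed the same order in both libraries. C1qa had a level of 1944 in KO and 1791 in WT in cluster 16, 313 in KO and 334 in WT in cluster 2, and 16.1 in KO and 17.3 in WT in cluster 8. The ratio of KO to WT was 1.09 in cluster 16 (0.994 to 1.19) and 0.937 in cluster 2 (0.876 to 1.0). C1qa was thus many-fold apart between clusters and close between the libraries within each. C1qb had a level of 808 in KO and 874 in WT in cluster 16, with a ratio of 0.924 (0.813 to 1.05), and of 233 in KO and 293 in WT in cluster 2, with a ratio of 0.795 (0.737 to 0.858). In cluster 8, on 19 and 68 UMIs, it was 9.85 in KO and 23.5 in WT, with a ratio of 0.419 (0.238 to 0.705). C1qc had a level of 902 in KO and 951 in WT in cluster 16, with a ratio of 0.949 (0.839 to 1.08). In cluster 2 its level was 169.8 in KO and 205 in WT, with a ratio of 0.827 (0.756 to 0.904). After every cell was thinned to 1000 UMIs, C1qa was found in 78.4% of KO and 77.6% of WT cells of cluster 16 (median depth 4104 and 3325.5 UMIs). In T, NK and innate lymphoid cells, which do not make C1q, it was found in 0.72% of KO and 0.50% of WT cells (median depth 4598 and 4240.5).

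Summed over the whole class, by contrast, C1q was higher in KO. C1qa had 3866 UMIs in KO and 2536 in WT, a level of 471 in KO and 290 in WT, with a ratio of 1.63 (1.55 to 1.71). C1qb had a level of 261 in KO and 228 in WT, with a ratio of 1.14 (1.08 to 1.22), and C1qc of 235 in KO and 173 in WT, with a ratio of 1.36 (1.27 to 1.46). The cells of cluster 16 made up 21.1% of the class in KO (18.8 to 23.6) and 6.36% in WT (5.19 to 7.70), a ratio of 3.32 (2.44 to 4.55). Of all kept cells they were 2.87% in KO (2.52 to 3.25) and 0.955% in WT (0.776 to 1.16), a ratio of 3.0 (2.17 to 4.19). Cluster 8 went the other way, with 21.7% of the class in KO and 32.3% in WT, a ratio of 0.674 (0.558 to 0.811). Of the genes named above as leading cluster 16, all but Ccl7 stood at close levels within it. The libraries were clustered jointly, so levels of such genes are not independent of how its cells were chosen. Mmp13, a collagenase, had a level of 619 in KO and 634 in WT, and Ms4a7 of 392 in KO and 408 in WT. Ccl7, a monocyte-attracting chemokine, was lower, at 419 in KO and 579 in WT, with a ratio of 0.724 (0.614 to 0.856).

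Cells were also counted directly as C1q-positive, meaning at least 10 UMIs of the 3 C1q genes in a cell of the class. There were 292 such cells in KO, 3.53% of kept cells (3.15 to 3.95), and 223 in WT, 2.17% (1.9 to 2.48), a ratio of 1.63 (1.27 to 2.08). As a share of the class they were 26.0% in KO (23.5 to 28.7) and 14.5% in WT (12.8 to 16.3), a ratio of 1.80 (1.44 to 2.25). The upper end of the distribution differed most: cells with 30 to 99 C1q UMIs were 58 in KO and 22 in WT, or 5.16% and 1.43% of the class, and 0 cells in either library had 100 or more. At the lower end, 41.0% of the class in KO and 52.4% in WT had 0 C1q UMIs. The cut divides a range: 121 KO and 194 WT cells had 5 to 9 C1q UMIs, and 76 KO and 90 WT cells had 10 to 14. Within a cluster the C1q-positive share differed less. It was 63.7% in KO and 58.2% in WT in cluster 16, a ratio of 1.10 (0.841 to 1.46), and 22.0% in KO and 17.3% in WT in cluster 2, a ratio of 1.27 (0.946 to 1.69). Cluster 8 held 0 such cells in KO and 2 in WT. Cluster 16 therefore supplied 51.7% of the C1q-positive cells in KO and 25.6% in WT, and cluster 2 48.3% and 73.5%, so the 2 sets of C1q-positive cells differ in make-up. C1q-positive cells had a median of 7525 UMIs in KO and 7085 in WT. Depth differed more within cluster 2, with 7384 UMIs in KO and 5512 in WT over its cells and 9718 in KO and 7821 in WT over its C1q-positive ones, and the cut counts raw UMIs. There the C1q-positive share was higher in KO while the C1q levels per UMI, given above, had ratios below 1. The part of depth in that share was not tested. Their C1q levels were used to choose them and are given as a description: C1qa was at 1327 in KO and 1091 in WT, C1qb at 722 and 795, and C1qc at 665 and 622.

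**Figure D2:**
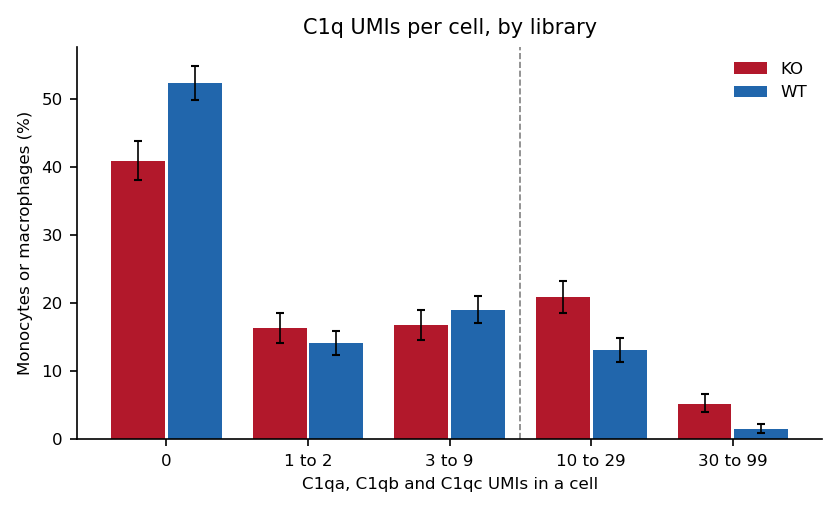
Share of the cells of the monocyte or macrophage class (percent, with 95% Clopper-Pearson intervals) by the number of C1q UMIs in the cell, KO and WT side by side. KO has the larger share from 10 to 29 UMIs (20.8% and 13%) and from 30 to 99 UMIs (5.16% and 1.43%), and the smaller share at 0 (41.0% and 52.4%).

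Of the members, Apoe and Pf4 were at least 2-fold higher in KO over the class on the log2 scale with 10 added to each level, and 0 were 2-fold lower. Of all 8101 genes with enough UMIs in the class, 0.555% were that much higher and 0.704% that much lower, 1.26% in all. The median log2 ratio was 0.59 over the 8 members other than Cd163 and 0.07 over all these genes. The class difference can be split into 2 parts. The share part comes from the share of cluster 16 in the UMIs of the class, the level part from levels inside and outside that cluster. This share was 14% in KO and 4.15% in WT, and it holds depth per cell as well as the number of cells. The share part was taken at WT levels and the level part at KO shares, and the 2 parts add up to the log2 ratio. For C1qa, 0.60 of a log2 ratio of 0.68 came from the share and 0.08 from levels. For C1qb the parts were 0.35 from the share and -0.17 from levels, and for C1qc 0.52 and -0.10. Mrc1 had the same form, with 0.53 from the share and -0.04 from levels, and so did Cx3cr1, with 0.33 and -0.17. In this order Apoe had 0.63 from the share and 0.73 from levels, and Pf4 0.71 and 0.74. Adgre1 was the member with the smallest part from the share, 0.20, against 0.53 from levels. The sizes of the parts depend on this order, and the other order was not run. The split also depends on the cut. With C1q-positive cells in place of cluster 16, Apoe had 0.29 from the share and 1.08 from levels, Pf4 0.38 and 1.07, and Adgre1 0.074 and 0.66. Mrc1 then had the larger part from levels, 0.29, with 0.20 from the share, and Cx3cr1 had 0.084 from the share and 0.077 from levels. C1qa had 0.45 from the share and 0.23 from levels, C1qb 0.41 and -0.22, and C1qc 0.42 and 0.0056.

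**Figure D3:**
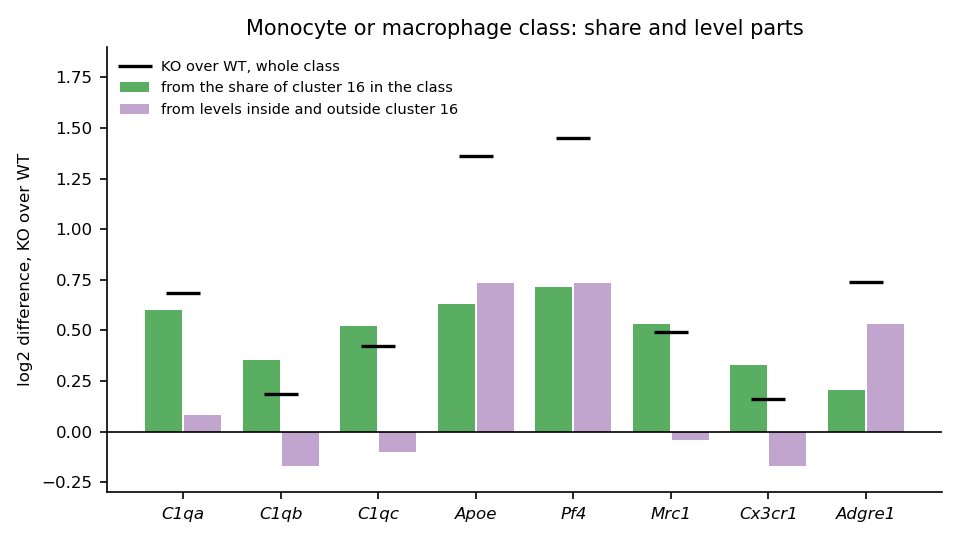
Log2 ratio of KO to WT over the monocyte or macrophage class for each measured member, split into the part from the share of cluster 16 in the UMIs of the class and the part from levels within and outside that cluster. The share part is taken at WT levels and the level part at KO shares. With this cut and order the C1q genes, Mrc1 and Cx3cr1 have their larger part from the share. Apoe (0.63 and 0.73) and Pf4 (0.71 and 0.74) have both parts and Adgre1 mainly the level part (0.53).

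Apoe was higher in KO in every part of the class. Its level over the class was 1816 in KO and 700 in WT, from 14894 and 6126 UMIs, with a ratio of 2.60 (2.52 to 2.67). In cluster 16 it was 6436 in KO and 4478 in WT, with a ratio of 1.44 (1.36 to 1.52), and in cluster 2 1323 in KO and 722 in WT, with a ratio of 1.83 (1.76 to 1.91). In cluster 8 it was 377 in KO and 184 in WT, with a ratio of 2.05 (1.83 to 2.29). The ratio was lowest where Apoe was highest, although the difference in level was largest there, 1957 in cluster 16, 601 in cluster 2 and 193 in cluster 8. In C1q-positive cells the level was 4109 in KO and 1838 in WT, with a ratio of 2.24 (2.15 to 2.33), and in the other cells of the class 843 in KO and 438 in WT, a ratio of 1.92. The middle cell of the C1q-positive cells carried 45.1 Apoe UMIs per 10000 UMIs in KO (quartiles 19.9 and 69.2) and 14.3 in WT (5.13 and 36.2). Since cluster 16 weighs more among the KO cells, the C1q-positive cells of cluster 2 were read alone, where the Apoe level was 2242 in KO and 1222 in WT, a ratio of 1.83. After thinning, 83.7% of C1q-positive cells in KO and 62.9% in WT held an Apoe UMI. Both libraries held cells with Xist or with Y-linked transcripts, as cells of female and male mice have. In cluster 16 the Apoe ratio was 1.06 (0.928 to 1.22) among cells with Xist UMIs and no Y-linked UMI (61 KO and 11 WT cells) and 1.91 (1.76 to 2.07) among cells with Y-linked UMIs and no Xist UMI (68 KO and 39 WT cells). The cells with neither or both (108 KO and 48 WT) gave 1.23 (1.13 to 1.35). Over C1q-positive cells the same 3 sets gave 2.19, 2.27 and 2.29.

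Pf4 had the highest ratio of the 9 genes over the class. Its level was 91.6 in KO and 27.2 in WT, from 751 and 238 UMIs, with a ratio of 3.37 (2.91 to 3.91). In cluster 16 it was 362 in KO and 259 in WT, with a ratio of 1.40 (1.11 to 1.77), and in cluster 2 64.0 in KO and 24.7 in WT, with a ratio of 2.59 (2.11 to 3.18). C1q-positive cells had a level of 256 in KO and 109 in WT, with a ratio of 2.35 (1.99 to 2.79). That difference did not hold among cells with at least 30 C1q UMIs, where the log2 ratio was -0.091 over 58 KO and 22 WT cells. Among C1q-positive cells, Apoe and Pf4 were again the members past 2-fold, both higher in KO, against 0.787% of 5081 genes that were that much higher and 0.807% lower. Pf4 is also a platelet gene, and the summed level of 9 platelet markers in C1q-positive cells was 25.8 in KO and 14 in WT (5 of 9 and 6 of 9 counted), with Gp1bb, Gp1ba and Treml1 at 0 in both libraries and Ppbp at 0 in KO. In cluster 16 no member was 2-fold apart, where 1.04% of 2698 genes were higher and 0.222% lower, 1.26% in all.

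**Figure D4:**
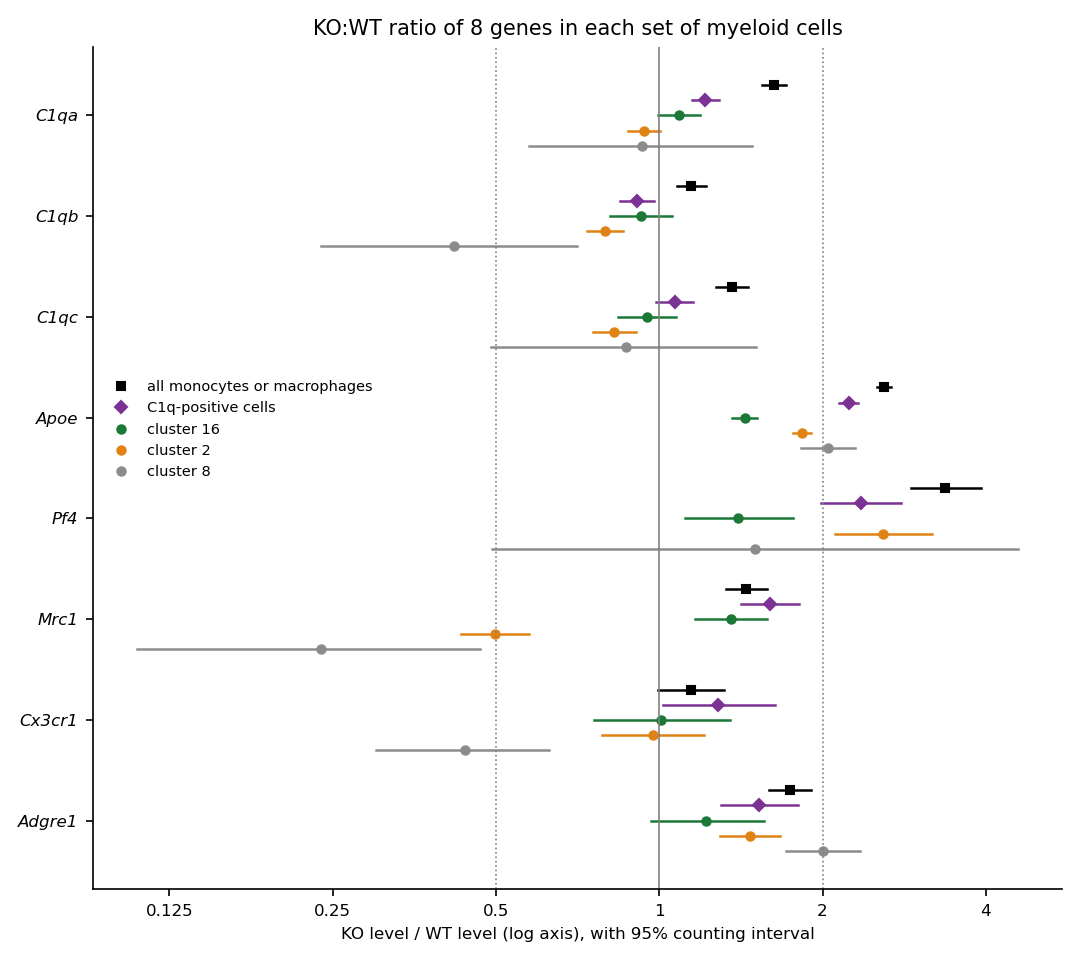
Ratio of KO to WT for each measured member (log axis, 95% intervals) in the whole class, in C1q-positive cells and in each of its clusters. Apoe lies above 1 in every set shown, and the C1q genes lie near or below 1 in cluster 2 although C1qa is 1.63 over the class.

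Mrc1 had opposite directions in different clusters. Over the class its level was 148 in KO and 102 in WT, from 1214 and 895 UMIs, with a ratio of 1.45 (1.33 to 1.58). In cluster 16 it was 799 in KO and 590 in WT, with a ratio of 1.35 (1.17 to 1.58), but in cluster 2 56.0 in KO and 112 in WT, with a ratio of 0.498 (0.432 to 0.574). In cluster 8, on 10 and 63 UMIs, it was 5.18 in KO and 21.8 in WT, with a ratio of 0.238 (0.109 to 0.467). Cluster 16 held 75.5% of the class's Mrc1 UMIs in KO and 23.9% in WT. In C1q-positive cells the level was 363 in KO and 227 in WT, but in those of cluster 2 alone it was 119 in KO and 149 in WT, with a ratio of 0.801 (0.651 to 0.986). In cluster 16, 170 of 237 KO cells and 63 of 98 WT cells had an Mrc1 UMI. Most of the UMIs sat in cells with 5 or more: 71 KO and 15 WT cells held 720 of 917 and 131 of 214 UMIs. Without cells of 5 or more UMIs the ratio in cluster 16 was 1.04 (0.801 to 1.36) and in cluster 2 0.493 (0.400 to 0.605). The cut uses raw counts of Mrc1 itself and took a larger share of KO than WT cells from cluster 16. The ratio of 1.04 therefore cannot say whether the difference rests on those cells. Among Xist cells of cluster 2 the ratio over all cells, whatever their Mrc1 count, was 0.901 (0.670 to 1.22) and among cells with Y-linked UMIs 0.628 (0.492 to 0.798). In cluster 16 the direction did not hold among the cells with neither or both, 108 in KO and 48 in WT, where the level was 677 in KO and 794 in WT, with a ratio of 0.852 (0.680 to 1.07). Mrc1 was at a level of 3.80 in KO and 14.7 in WT in dendritic cells. Cd163, the other scavenger receptor of the set, had 2 UMIs in the KO class and 4 in the WT class, and 0 in cluster 16 and in C1q-positive cells of both libraries, where a count of 3 would have been the limit.

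Of the surface receptors, Cx3cr1 did not differ within cluster 16 beyond counting error. Its level there was 180.3 in KO and 179 in WT, with a ratio of 1.01 (0.758 to 1.35), and in cluster 2 32.6 in KO and 33.5 in WT, with a ratio of 0.974 (0.785 to 1.21). In cluster 8 it was 20.7 in KO and 47.4 in WT, with a ratio of 0.438 (0.30 to 0.627). T, NK and innate lymphoid cells had a Cx3cr1 level of 25.5 in KO and 21.7 in WT. The KO level of cluster 8 thus lay below theirs, and the levels of cluster 2 not far above. Over the class the ratio was 1.14 (0.99 to 1.32), and C1q-positive cells had a level of 87.1 in KO and 67.8 in WT. Cx3cr1 and Mrc1 were found together in 31.2% of KO and 27.6% of WT cells of cluster 16, while 40.5% of KO and 36.7% of WT cells had Mrc1 or Cd163 alone and 9.70% and 11.2% had Cx3cr1 alone. Adgre1 was higher in KO over the class, with a level of 162 in KO and 93.0 in WT and a ratio of 1.74 (1.59 to 1.9). In cluster 8, the monocyte cluster, its level was 200.1 in KO and 99.9 in WT, with a ratio of 2.0 (1.72 to 2.34), and in cluster 2 it was 117 in KO and 79.3 in WT, with a ratio of 1.47 (1.30 to 1.67). In cluster 16 its level was 299.7 in KO and 245 in WT, with a ratio of 1.22 (0.965 to 1.56), and in C1q-positive cells 203 in KO and 133 in WT. The log2 ratio of Adgre1 in cluster 16 was 0.28 over all cells. It was -0.37 among its Xist cells (61 KO and 11 WT) and 0.83 among those with Y-linked UMIs only (68 KO and 39 WT). Adgre1 thus differed most in the cells with the least C1q, and cells of the class that were not C1q-positive had 145 in KO and 83.9 in WT. With 10 added to each level, Pf4 was the member past 2-fold in cluster 2, against 0.71% of 7470 genes higher and 0.763% lower there (1.47% in all). Of the 3 members with enough UMIs in cluster 8 (Apoe, Cx3cr1 and Adgre1), 0 were past 2-fold, against 1.45% of 5234 genes higher and 1.97% lower (3.42% in all).

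Of 30 other genes of resident macrophages, 29 had enough UMIs in the class, and 3 were past 2-fold there. On the log2 scale 24 were above 0, beside 60.9% of all genes, and 5 below it, and the median was 0.44 beside 0.07 over all genes. The 3 were Ms4a7 (a level of 103 in KO and 29.8 in WT), the chemokine Ccl12 (31.0 and 10.4) and the lipid receptor Trem2 (38.9 and 14.4), all higher in KO. In cluster 16 the list's median was 0.03, with 17 of 27 above 0, beside 56.9% of all genes, and 0 past 2-fold. In C1q-positive cells, 23 of 29 were above 0, beside 57.3% of all genes, the median was 0.42 beside 0.06 over all genes, and with 10 added to each level Ccl12 alone was past 2-fold (79.8 in KO and 27.5 in WT). There Ms4a7 was 244 in KO and 117 in WT, Lgmn, a lysosomal protease, 2603 and 1435, Adamdec1, a protease of gut macrophages, 124 and 64.7, and the apoptotic cell receptor Axl 102 and 134. Genes of long-lived tissue macrophages were mostly out of reach: 3 of 14 could be compared in the class, and Timd4 had 32 UMIs in KO and 20 in WT, Lyve1 3 and 1, Folr2 14 and 16, and Vsig4 0 and 2. Hes1, a target of Notch signalling on this list, was at 212 in KO and 73.3 in WT in C1q-positive cells.

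Genes linked to the members by pathway had medians nearer to 0. Of complement components, receptors and regulators, 12 could be compared in C1q-positive cells with a median of 0.16, and C3, the central component, was past 2-fold lower, at 18.8 in KO and 69.0 in WT (46 and 113 UMIs). Cd93, a receptor once linked to C1q, was at 73.2 in KO and 47.0 in WT, and Calr, a chaperone that can bind C1q, at 346 in KO and 535 in WT. Of genes of lipid handling, 16 could be compared, with a median of 0.15, and 0 were past 2-fold once 10 was added to each level. Trem2 was at 49.1 in KO and 22.0 in WT, Gpnmb at 78.1 and 35.4, Npc1, a lysosomal cholesterol carrier, at 94.5 and 58.6, and Fabp5, a fatty acid carrier, at 72.4 and 117. Of apoptotic cell and scavenger receptors, 10 could be compared and 6 were above 0, beside 57.3% of all genes. The median was 0.058 beside 0.061 over all genes, with Stab1 at 50.7 in KO and 28.7 in WT and Cd36 at 165 and 221. Among ligands, Il10 was at 115 in KO and 97.7 in WT and Tgfb1 at 223 and 202.

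Of 12 early monocyte genes, 8 could be compared in C1q-positive cells, and 2 of them, Ly6c2 and Plac8, were past 2-fold lower in KO. On the log2 scale 7 of the 8 were below 0, beside 42.7% of all genes, and the median was -0.74. Ly6c2 was at 8.59 in KO and 51.3 in WT, with a ratio of 0.167, Plac8 at 673 and 1452, and Thbs1 at 925 and 1841, while F13a1 was at 67.5 and 41.5. Of 12 inflammatory monocyte genes that could be compared, 9 were below 0, with a median of -0.14. They did not move as 1 group: Inhba was at 163 in KO and 509 in WT and Il1b at 1416 and 2443, while the chemokine Ccl2 was at 429 in KO and 169 in WT and Tnf at 480 and 288. In cluster 16, 2 early monocyte genes could be compared, with a median of -0.26. The summed level of 13 monocyte markers in C1q-positive cells was 3298 in KO and 5791 in WT, and that of 20 macrophage markers without the members 8492 and 6187, so the make-up named above moved with these values.

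The genes furthest apart in C1q-positive cells included genes known from other cell types. The 5 highest were Pdgfc (47.9 in KO and 9.16 in WT), Ebf1 (356 and 90.4), Tmem267 (1761 and 532), Cadm1 (312 and 94.7) and Blnk (158 and 50.1). Ebf1 and Blnk are known from B cells. The summed level of 10 B cell markers, all of them counted in both libraries, was 507 in KO and 158 in WT in these cells. Ebf1 is 1 of these 10 and made up 356 in KO and 90.4 in WT of the sums. Blnk is not 1 of the 10, and 38.9% of KO and 14.6% of WT cells of cluster 2 had a UMI of it. Cadm1 is a gene of type 1 dendritic cells, whose 9 markers had a summed level of 568 in KO and 385 in WT. Cadm1 is 1 of these 9 and made up 312 in KO and 94.7 in WT, so the higher sum in KO rests on Cadm1 itself. The part of B cell and dendritic cell transcripts in the result was not tested. The 5 lowest were the growth factor Nrg1 (13.1 in KO and 123 in WT), the transcription factor Glis3 (21.3 and 142), the interferon-induced chemokine Cxcl9 (47.5 and 219.9), the protein C receptor Procr (20.05 and 96.5) and the chemokine receptor Ccr7 (47.9 and 191). Fibroblast markers had a summed level of 11.05 in KO and 79.4 in WT (6 of 10 and 9 of 10 counted), T cell markers 102 and 266, Paneth cell markers 62.2 and 9.77, and plasma cell markers, led by the secreted Igha, 5701 and 7282. Their part was not tested either.

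Apoe stood at far lower levels in lymphocytes than in the monocyte or macrophage class, and its ratio of KO to WT differed between lymphocyte classes. In T, NK and innate lymphoid cells Apoe had a level of 45.5 in KO and 19.5 in WT, with a ratio of 2.33 (2.03 to 2.68), and in plasma cells 78.3 in KO and 22.2 in WT. In B cells it went the other way, at 119 in KO and 154 in WT, with a ratio of 0.77 (0.70 to 0.85). The difference in Apoe level between KO and WT was 26.0 in T, NK and innate lymphoid cells and 1117 in the class, while the ratios were 2.33 and 2.60. Taking the lymphocyte level of each library off first left the Apoe ratio at 2.60 in the class and 2.23 in C1q-positive cells, and that of Pf4 at 3.35 and 2.34. These lymphocyte levels were small beside those of the class, so taking them off could move such ratios only slightly. For Cx3cr1 the lymphocyte level was closer to that of the class, and the class ratio became 1.12. The Cx3cr1 ratio became 0.983 in cluster 16 and 0.604 in cluster 2. In cluster 8 nothing of Cx3cr1 was left in KO, and a level of 25.7 was left in WT. Of all member UMIs in T, NK and innate lymphoid cells Cx3cr1 made up 26.9% in KO, against 1.56% in the KO class, and C1qa 7.34% against 14.6%. Cx3cr1 is known from cytotoxic lymphocytes too, and the part of free RNA in these counts was not tested. The summed level of the 9 members in T, NK and innate lymphoid cells was 94.6 in KO and 58.0 in WT, which was 0.81% and 0.62% of that in cluster 16.

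Outside the class some members stood higher in neutrophils, stromal cells and unnamed clusters than in lymphocytes. In neutrophils the summed C1q level was 126 in KO and 6.78 in WT, from 146 UMIs in 516 KO cells and 3 UMIs in 259 WT cells. Of the 146, 5 KO cells with 3 or more C1q UMIs held 118, and 1 of them held 102. Those 5 cells had a median of 10263 UMIs, against 1735 in the other KO neutrophils. Without them the C1q level was 25.3 in KO and 6.78 in WT, and Apoe, at 335 in KO and 38.4 in WT with them, was 185 in KO. Adgre1 and Cx3cr1 did not rest on these cells: Adgre1 was 148 in KO and 76.8 in WT, with a ratio of 1.93 (1.33 to 2.88), and 147 in KO without them, and Cx3cr1 was 147 in KO and 61 in WT, with a ratio of 2.40 (1.6 to 3.76), and 137 in KO without them. In stromal cells Apoe was 336 in KO and 347 in WT. In cluster 25, without a name, it was 1813 in KO (41 cells) and 308 in WT (4 cells), and in cluster 11, also unnamed, Cx3cr1 was 110.0 in KO and 86.7 in WT, above its level in the whole class. Outside the class, 6 KO and 3 WT cells reached 10 C1q UMIs.

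Across the 25 clusters with at least 50 cells, both libraries summed, the genes outside the set with the level pattern most like the mean of C1q were Ms4a7 (Pearson r of 0.965), Mmp13 (0.956), Ifnb1 (0.933), Plau (0.913), Ccl24 (0.908), C3ar1 (0.904), Ccl12 (0.899), Gm14221 (0.896), Acp5 (0.891) and Ms4a14 (0.880). The other members ranged from Pf4 and Mrc1 (0.965 each) through Apoe (0.845) and Adgre1 (0.813) to Cx3cr1 (0.567) and Cd163 (-0.018). The clusters share libraries and depth, so r describes a pattern of levels only.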

How the data were processed

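The deposited values are raw UMI counts for each gene in each barcode; the submitters' processing notes name Cell Ranger 7.0.0 and GRCm38. The 9 genes and all lists were chosen with earlier results of these data known. Cells with at least 200 genes, at least 500 UMIs and at most 20% mitochondrial UMIs were kept (8681 of 8794 in KO, 10896 of 10958 in WT), and Scrublet in scanpy 1.11.5 removed 416 and 637 doublets. The libraries were clustered jointly, with no batch correction, on 2000 variable genes that exclude the members and immunoglobulin and T cell receptor segments, with 30 principal components, 20 neighbours and Leiden resolution 1 (leidenalg 0.10.2), which gave 27 clusters. Names come from marker lists without the members; T, NK and innate lymphoid lists were joined after the clusters were seen, so classes are rebuilt, not the authors'. Levels sum UMIs per 1000000. Log2 ratios add 10 to each level. A gene was compared with at least 100 UMIs in the 2 libraries together and detection in 5% of the cells of 1 library, and 2-fold marks a difference. Named genes are the members, Dpf2, the 10 genes most like C1q over clusters, up to 5 of each list (the highest, the lowest and the largest by size) and, in C1q-positive cells, the 5 highest and 5 lowest ratios; list genes quoted for the class and UMIs of long-lived macrophage genes were chosen after their values were seen. Alternatives changed the C1q cut, pseudocount, filters, scaling, doublets, clustering and the cells' sex transcripts. The code was checked on simulated counts.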

Additional observations from a re-analysis of the deposited data

Results flagged for a closer look

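Mrc1 was picked out because its difference had opposite directions in cells of 1 class: the ratio of KO to WT was 1.35 in cluster 16, against 0.498 in cluster 2 and 0.238 in cluster 8. With 1 library per genotype the difference between clusters was not tested. Cells with Xist UMIs and no Y-linked UMI gave 1.73 in cluster 16, 0.901 in cluster 2 and 0.172 in cluster 8. Cells with Y-linked UMIs and no Xist UMI gave 1.97, 0.628 and 0.170 in the same clusters. Cells with neither or both gave 0.852 (0.680 to 1.07), 0.284 and 0.419. The direction in cluster 16 was therefore not the same in all 3 sets of cells, and the interval for Xist cells of cluster 2, 0.670 to 1.22, includes 1.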

How the results depend on the processing

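No paired analysis was possible because each genotype has 1 library and no test was run. The ratio of the C1q-positive share of kept cells, 1.63, was 1.15 with a cut of 3 C1q UMIs, 3.27 with a cut of 30 and 2.51 among Xist cells; that of the share of the class, 1.80, was 1.28 and 3.62 with these cuts. The share of cluster 16 in the class, with a ratio of 3.32, gave 4.85 among Xist cells. With 50 added to each level, 1 member (Apoe) stayed past 2-fold in the class and in C1q-positive cells; the same number resulted in C1q-positive cells from the cut of 30 UMIs and among cells with Y-linked UMIs. The Pf4 log2 ratio in C1q-positive cells, 1.16, reversed to -0.091 (KO lower) with the cut of 30. The summed log2 ratio in lymphoid classes, 0.74, was 0.54 with 50 added, 0.94 with doublets kept, 0.98 with the members used in clustering and 0.89 among cells with Y-linked UMIs. It pools classes in unequal numbers: 2525 KO and 1120 WT B cells, and 1945 KO and 4012 WT T, NK and innate lymphoid cells. The summed level in B cells was 163 in KO and 179 in WT. It was 94.6 in KO and 58.0 in WT in T, NK and innate lymphoid cells, and 128 in KO and 55.5 in WT in plasma cells. The 102 genes past 2-fold in the class became 282 with 1 added and 21 with 50 added; the 81 in C1q-positive cells became 157, 25 and, without a filter, 137. Of 360 alternatives of single members, 292 moved less than their interval, 67 moved more and 1 reversed. Reversed was kept for members past 2-fold, so smaller ratios that changed sign are not counted as such. In cluster 16 Cx3cr1 changed sign in 3 of 12 alternatives, C1qb and C1qc in 2 each, and C1qa and Adgre1 in 1 each. C1qb and Cx3cr1 did so in 1 of 16 in C1q-positive cells, and Cd163 in 2 of 12 over the class. Cd163 had 0 UMIs in C1q-positive cells and cluster 16, so its 16 and 12 alternatives there could only count as unmoved. The causes were not tested. Depth limits Cd163 (0 UMIs), Cx3cr1 (111) and Pf4 (178) in the C1q-positive cells of WT, and the Xist cells of cluster 16, of which WT had 11.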

Other observations

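The stromal cluster 17 had an Apoe level of 556 in KO (22 cells) and 471 in WT (236 cells). Cluster 12, which took no cell type name, held C1qa at 41.5 in KO (148 cells) and 79.3 in WT (323 cells), with a ratio of 0.524 (0.230 to 1.09), and Apoe at 432 in KO and 250 in WT.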
